A study of Mus musculus with 16 samples.

Results

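The 9 genes described here encode proteins with which endothelial cells (ECs) start, restrain and clear blood clots, and they were taken by symbol (F3, Tfpi, Thbd, Procr, Vwf, F8, Plat, Plau and Plaur) from the 54532 genes of the deposited tables. RNA-seq was performed in bulk on pulmonary ECs of mice, which the study isolated from digested lung with magnetic beads as CD31+ CD45- cells. WT C57/BL6J males of 8 weeks were treated intratracheally with saline (n = 4) or with LPS at 10 mg/kg (n = 6). LPS (lipopolysaccharide) comes from the wall of Gram-negative bacteria and causes acute lung injury in this model. In a separate experiment, Fgfr1 loxP/loxP mice (wt, n = 3) were compared with Fgfr1 iΔEC/iΔEC littermates (cko, n = 3), in which a tamoxifen-induced Cre recombinase under the VE-cadherin promoter deletes the FGF receptor gene Fgfr1 in ECs. Mice of both genotypes carried the loxP alleles, were given tamoxifen and received 2 mg/kg LPS intratracheally, so that experiment held no saline group. RNA was collected at 24 h in all 4 groups. The labels number the libraries within a group without stating whether a library is 1 mouse or a pool, so p-values measure the spread between these samples. Reads on genes numbered 13478726 to 18807007 in the saline libraries, 17840221 to 19043015 in the LPS libraries, 15969575 to 17002788 in the wt libraries and 16642177 to 16943522 in the cko libraries.

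Quiescent endothelium keeps blood fluid, and inflamed endothelium can turn toward clotting. Tissue factor (F3) binds factor VIIa to start coagulation, and tissue factor pathway inhibitor (Tfpi) blocks that step. Thrombomodulin (Thbd) captures thrombin and, together with the endothelial protein C receptor (Procr), turns it to the activation of the anticoagulant protein C. Von Willebrand factor (Vwf), which is stored in Weibel-Palade bodies of ECs, tethers platelets and carries coagulation factor VIII (F8). Fibrin is dissolved by plasmin, which is made by tissue plasminogen activator (Plat) and urokinase (Plau, whose receptor is Plaur).

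Promoter sequences are shown for F3, Procr and Plaur, which were higher in every LPS library than in saline 2, 3 and 4, and for Tfpi, the inhibitor of F3, which was lower. RefSeq promoters on GRCm38.p6 were found for 5 of the 9 genes, and 4 are printed. That of F8, which was also lower in all LPS libraries, was not searched. The windows were picked by direction in these data, and F3 did not pass with all libraries. They therefore do not compare rising with falling genes. Plat was higher in the same way, but its promoter was not among those found. The windows of F3, Procr and Tfpi end at the base before the start of the gene in the annotation used here, and that of Plaur ends 1 base short of it. The capitals mark TGANTCA, the binding motif of the AP-1 factors of the Jun and Fos families, searched on both strands.
F3 (chr3:121723287-121723536, plus strand): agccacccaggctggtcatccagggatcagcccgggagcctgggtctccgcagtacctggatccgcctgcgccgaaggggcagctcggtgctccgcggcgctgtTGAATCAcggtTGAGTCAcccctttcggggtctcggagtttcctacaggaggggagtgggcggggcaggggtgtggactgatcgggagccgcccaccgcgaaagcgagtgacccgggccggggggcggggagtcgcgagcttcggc
Procr (chr2:155750967-155751116, plus strand): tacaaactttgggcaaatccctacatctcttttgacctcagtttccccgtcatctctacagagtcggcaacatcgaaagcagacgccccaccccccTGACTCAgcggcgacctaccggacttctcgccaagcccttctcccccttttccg
Plaur (chr7:24462233-24462482, plus strand): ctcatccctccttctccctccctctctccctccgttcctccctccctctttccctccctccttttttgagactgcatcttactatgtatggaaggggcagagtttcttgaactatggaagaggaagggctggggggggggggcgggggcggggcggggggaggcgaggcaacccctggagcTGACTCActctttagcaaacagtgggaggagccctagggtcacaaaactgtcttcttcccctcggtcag
Tfpi (chr2:84476776-84477009, minus strand): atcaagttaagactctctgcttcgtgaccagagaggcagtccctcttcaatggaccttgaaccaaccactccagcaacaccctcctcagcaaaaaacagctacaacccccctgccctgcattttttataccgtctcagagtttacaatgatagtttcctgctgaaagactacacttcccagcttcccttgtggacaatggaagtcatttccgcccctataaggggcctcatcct
The F3 window held 2 AP-1 motifs, TGAATCA at 146 and TGAGTCA at 135 bases before the gene start, where 6.75% of all 32851 RefSeq promoter windows cut to the same length held at least 1. The Plaur window held 1 motif, TGACTCA, at 70 bases before the start, beside the same share of 6.75%. In Procr the same TGACTCA lay at 54 bases, in a shorter window of 150 bases in which 4.00% of all windows held the motif. No AP-1 motif was found in the Tfpi window, where 6.45% of windows of its length held one. The Tfpi window held 1 TATA box (TATAAA, on either strand), found in 11.9% of windows of that length, and the other 3 windows held none. The NF-kB consensus was not found in any of the 4 windows. The core motif of KLF factors, CACCC, occurred 3 times in F3, where 52.0% of windows hold it, and once each in Procr, where 35.2% of windows of its length hold it, and in Tfpi, where 49.8% do. These matches describe the letters of the windows only. The other genes lie on GRCm38 as Thbd (chr2:148404466-148408188, minus strand), Vwf (chr6:125546774-125686679, plus strand), F8 (chrX:75172715-75382615, minus strand), Plat (chr8:22757727-22782844, plus strand) and Plau (chr14:20836660-20843385, plus strand), all of them protein-coding, and values are read over the exons of the whole gene.

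In the labelled cells, the endothelial markers were abundant. Pecam1, which encodes CD31, averaged 400.3 FPKM in saline and 357.7 FPKM in LPS libraries, and Cdh5, which encodes VE-cadherin, averaged 709.6 and 394.1 FPKM. FPKM, the unit of the deposited values, counts fragments on a gene relative to its length and to the size of the library. Some markers of other cell types were abundant as well. The epithelial marker Sftpc averaged 1316.0 FPKM in saline and 280.1 FPKM in LPS, and the neutrophil marker S100a9 averaged 259.1 and 1864.1 FPKM. The endothelial marker Cldn5 averaged 1532.7 and 1058.4 FPKM. Others were low, such as the epithelial marker Epcam at 2.15 and 2.43 FPKM. Over a list of 10 endothelial markers, led by Cldn5, the mean log2(FPKM + 1) was 7.79 in saline and 7.07 in LPS, and all 6 LPS libraries (6.34 to 7.41) lay below all 4 saline libraries (7.68 to 7.92). Lists of myeloid cells were higher in LPS. The leukocyte list averaged 4.40 in saline and 7.17 in LPS, and the macrophage list, led by Chil3, averaged 2.29 and 6.00, with the groups apart in both. The neutrophil list, led by S100a9, was at 2.30 to 3.93 in saline 2, 3 and 4, at 5.70 in saline 1 and at 5.47 to 7.10 in LPS. The platelet and megakaryocyte list averaged 2.15 in saline and 2.84 in LPS, and these groups overlapped. It was higher in the second experiment, at 3.92 in wt and 4.11 in cko. Saline and LPS also overlapped in the lymphocyte list (3.20 in saline and 2.06 in LPS), the epithelial list (5.01 and 4.45), the fibroblast list (2.55 and 2.15) and the mural list (2.84 and 2.43). The mesothelial list was near 0 in every library, and Wt1 was listed at 0 in all saline, wt and cko libraries. In bulk libraries, fewer cells of a type and less RNA per cell cannot be told apart. What part the marker genes have in the values below was not tested.

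**Figure D1:**
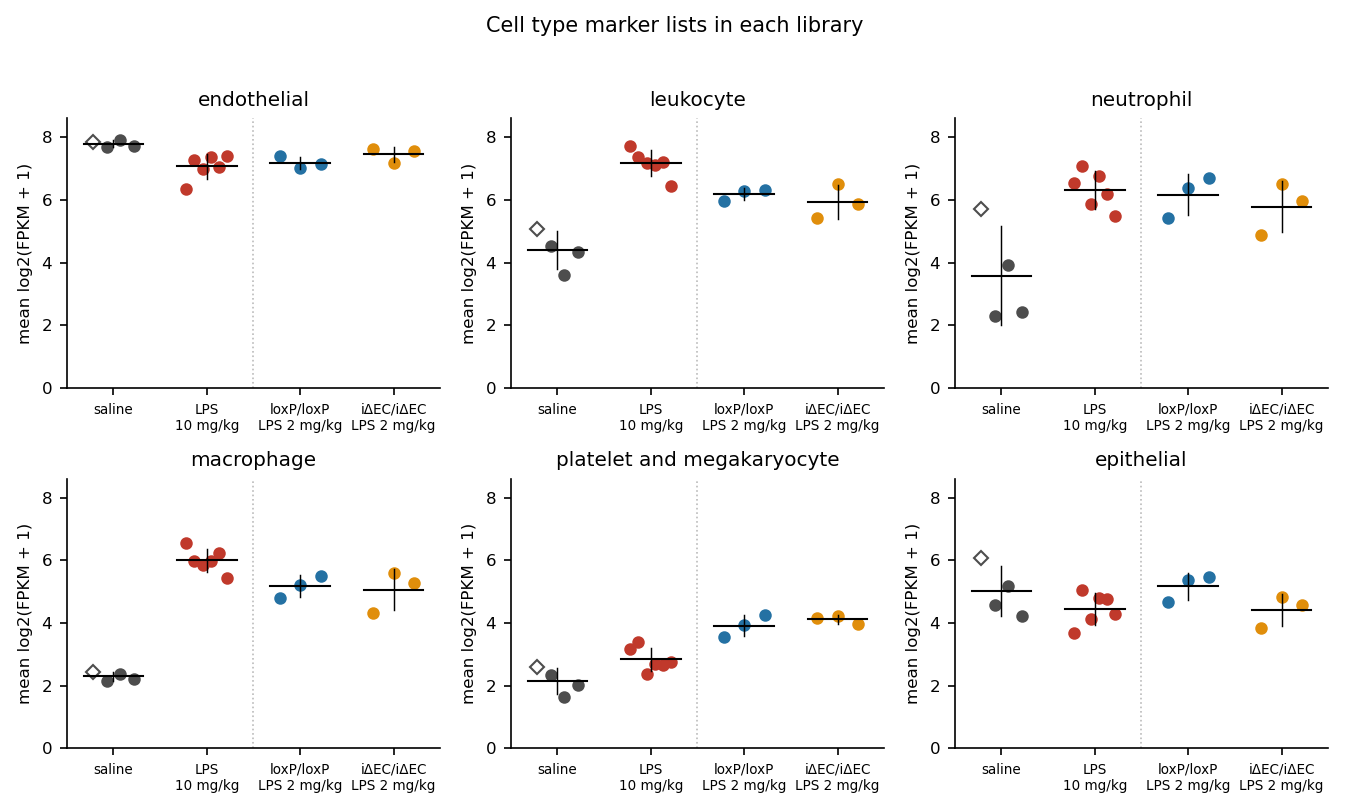
Mean log2(FPKM + 1) over 6 cell type marker lists in each library (points), with the group mean (horizontal line) and SD (vertical line), and saline 1 as an open diamond. The dotted line separates the 2 tables, which were normalized separately. The endothelial list was lower and the leukocyte and macrophage lists were higher in all LPS libraries than in all saline libraries.

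Saline 1 stood apart from the other saline libraries. In saline 1, 832 of the 14893 genes tested lay far above the other 3 saline libraries and 693 far below them by the Dixon criterion (10.2% in all, against 0.423% in saline 2, 1.46% in saline 3 and 0.45% in saline 4). Its epithelial list was at 6.07, above the 4.23 to 5.17 of the other saline libraries, and its read number was the lowest of all 16 libraries. In saline 3 the lymphocyte list was low, at 1.93 against 3.51 to 3.73. Calls are therefore given with all libraries and, for the genes whose call differed, without saline 1.

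In LPS, 3 of the 9 genes rose and 3 fell when called at a threshold of 0.05 on the limma p-value, adjusted by Benjamini-Hochberg over all 14893 genes tested. Procr, Plat and Plaur rose, Tfpi, Thbd and Vwf fell, F3 and Plau did not pass, and F8 was below the minimum of 0.5 FPKM on average and was not tested. Over all genes tested, 29.5% were higher and 23.7% were lower by the same rule, so calls were frequent throughout these libraries. When the log2 fold change also had to reach 1 in size, Plat and Plaur were higher (2 of 9, beside 11.9% of all genes) and Thbd and Vwf were lower (2 of 9, beside 6.79%). These counts depended on single libraries: the count lower was 0 without LPS 1 and 1 without saline 1 or LPS 2, and the count higher was 3 without saline 1 and 1 without saline 2, 3 or 4. The split of 4399 higher and 3529 lower genes became 3463 and 4669 with scaling on total reads, and 3570 and 4295 with quantile normalization. An unadjusted p under 0.05 was reached by 6 of the 8 tested members and by 59.6% of all genes. The median log2 fold change of the 8 tested members was 0.00, beside 0.01 over all genes. In Thbd, Tfpi, Plaur and F8 all LPS libraries lay on one side of all saline libraries, where over all genes tested 22.7% were higher and 16.7% lower in this way (39.4% in either direction). Without saline 1, F3 also passed, and 4 members were higher (31.3% of all genes in that fit) and 3 lower (25.4%). Scaling the libraries to equal levels of the endothelial list moved the median of all genes from 0.01 to 0.57. Procr, Plat and Plaur were then higher, beside 48.4% of all genes (7258), and 0 members were lower, beside 5.32% (799). Adjusted p-values in that limma fit were 0.0906 for Thbd, 0.935 for Tfpi and 0.274 for Vwf.

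**Figure D2:**
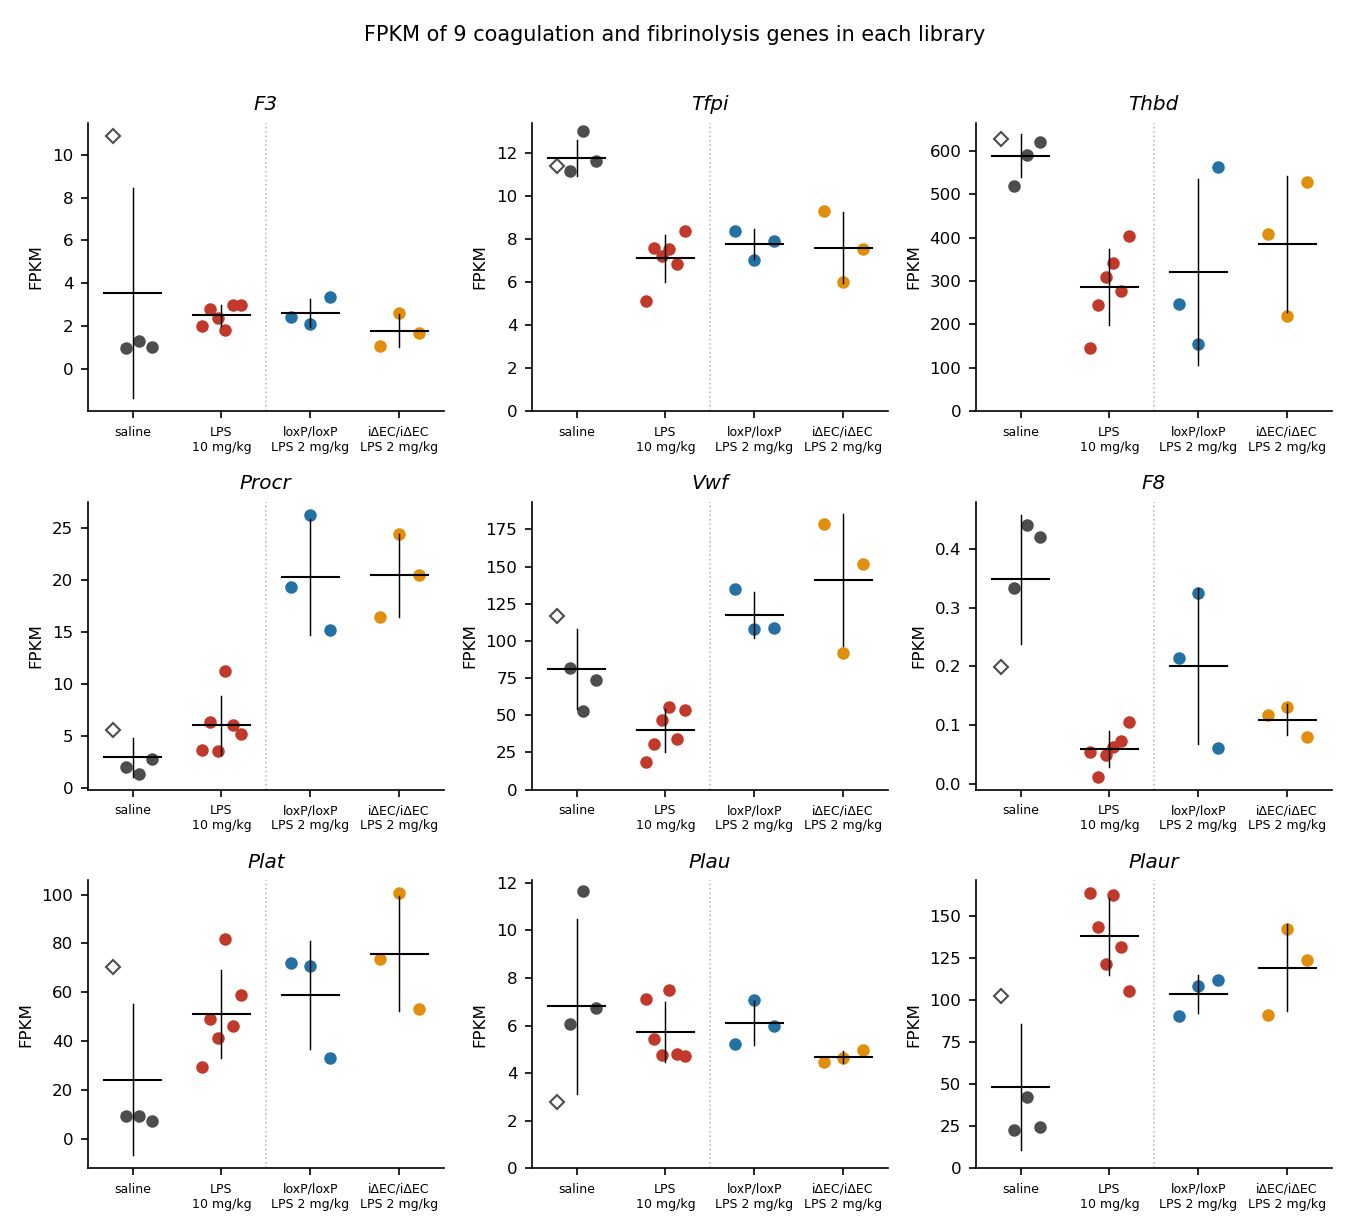
FPKM of each of the 9 genes in every library (points) with the group mean (horizontal line) and SD (vertical line). Saline 1 is the open diamond, and the dotted line separates the 2 tables. Thbd, Tfpi and F8 were lower and Plaur was higher in all LPS libraries than in all saline libraries, and saline 1 lay far above the other saline libraries in F3 and Plat.

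F3, the trigger of the cascade, was weakly expressed and its saline values were split. F3 was at 0.948, 1.31 and 1.01 FPKM in saline 2, 3 and 4, from 50 to 59 reads each, and at 10.9 FPKM in saline 1, from 364 reads. The LPS libraries ranged from 1.82 to 2.99 FPKM with a median of 2.59. All 6 LPS libraries were above saline 2, 3 and 4 and below saline 1. With all libraries the log2 fold change of F3 was 0.11 ± 0.44 (SE, adjusted p = 0.852), and without saline 1 it was 0.73 ± 0.14 (adjusted p = 0.00176, limma). Tfpi, its inhibitor, fell. It was at 11.4, 11.2, 13.02 and 11.6 FPKM in saline 1 to 4 and at 5.11 to 8.36 FPKM in LPS, with a median of 7.38. The groups were apart, and the log2 fold change was -0.67 ± 0.12 (adjusted p = 0.00107). Among all 9 genes, Tfpi had the smallest relative spread within the saline group, with 11.8 ± 0.838 FPKM (SD, n = 4). Scaled to the endothelial list, its difference was -0.02 ± 0.16. Tfpi also followed that list within groups: after the group means were removed, the correlation of Tfpi with the endothelial list over the 16 libraries was 0.910, and with the macrophage list it was -0.808. With the endothelial list Vwf correlated at 0.721 and Thbd at 0.633, and the other members at 0.295 or less. These are descriptions, since the gene and the list come from the same RNA in each library.

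Of the protein C pathway, the receptor for thrombin fell and the receptor for protein C rose. Thbd, at 627.1, 520.1, 590.8 and 620.7 FPKM in saline 1 to 4, was the most abundant of the 9 genes in every group and ranked 32 among the 14893 genes by its saline mean. In LPS it ranged from 145.5 FPKM in LPS 1 to 403.8 FPKM in LPS 6, with a median of 292.6. All LPS libraries lay below all saline libraries, and the means of 589.7 ± 49.0 and 286.8 ± 88.1 FPKM (SD, n = 4 and 6) differed by 2.06-fold. The log2 fold change of Thbd was -1.10 ± 0.26 (adjusted p = 0.00422, limma). LPS 1, the lowest library for Thbd, was also the lowest in the endothelial list. Procr was at 5.58 FPKM in saline 1 and at 2.07, 1.38 and 2.78 FPKM in saline 2, 3 and 4. In LPS it ranged from 3.54 to 11.2 FPKM, with a median of 5.63. The groups overlapped only through saline 1. The log2 fold change of Procr was 0.85 ± 0.32 (adjusted p = 0.0412), and without saline 1 it was 1.13 ± 0.29 (adjusted p = 0.00777). This call was lost in 7 of the 10 fits that each left out 1 library, with adjusted p-values up to 0.127.

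Vwf and F8, the platelet tether and the factor it carries, were both lower in LPS. Vwf was at 116.9, 81.6, 52.8 and 73.6 FPKM in saline 1 to 4 and ranged from 18.3 to 55.4 FPKM in LPS, with a median of 40.4. Saline 3 lay within the LPS range, so the groups overlapped. The log2 fold change of Vwf was -1.05 ± 0.31 (adjusted p = 0.0149), and -0.85 ± 0.32 without saline 1 (adjusted p = 0.0440). F8 was close to the floor of the data. It was at 0.198, 0.333, 0.441 and 0.421 FPKM in saline 1 to 4 (26, 73, 78 and 82 reads), and at 0.0124 to 0.106 FPKM in LPS (2 to 20 reads), with a median of 0.0590. All LPS libraries were below all saline libraries, and the saline mean was 5.81 times the LPS mean. Tested without the filter on low values, F8 had a log2 fold change of -0.34 ± 0.06 (adjusted p = 0.00172, limma), a value that the pseudocount of 1 FPKM compresses. With limma-voom on the read numbers, an alternative chosen after seeing the data, it was -2.64 (adjusted p = 0.000427). F8 overlaps Fundc2 and a pair of pseudogenes, and reads shared with them cannot be told apart.

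The fibrinolytic genes differed by member. Plat was at 9.50, 9.56 and 7.46 FPKM in saline 2, 3 and 4, at 70.4 FPKM in saline 1, and at 29.5 to 81.7 FPKM in LPS, with a median of 47.8. All LPS libraries were above saline 2, 3 and 4, and saline 1 lay within the LPS range. The log2 fold change of Plat was 1.63 ± 0.53 with all libraries (adjusted p = 0.0230) and 2.35 ± 0.26 without saline 1 (adjusted p = 6.08e-05). Leaving out any other saline library raised the adjusted p of Plat above 0.05, to 0.0773 at most. Plau, the other activator, did not pass the test. It ranged from 2.78 FPKM in saline 1 to 11.7 FPKM in saline 3, a range that held all LPS values (4.72 to 7.51 FPKM), with a log2 fold change of -0.11 ± 0.28 (adjusted p = 0.762). Plaur was at 102.8, 23.0, 42.7 and 24.8 FPKM in saline 1 to 4, and at 105.8 to 163.8 FPKM in LPS, with a median of 137.7. Here the groups were apart, although saline 1 came close to the lowest LPS library. The log2 fold change of Plaur was 1.75 ± 0.35 (adjusted p = 0.00185), and 2.20 ± 0.21 without saline 1 (adjusted p = 2.71e-05). Plaur followed the neutrophil list: with the group means removed, the correlation was 0.954 over 16 libraries and 0.929 without saline 1. Plaur also correlated with the epithelial list at 0.740 (0.551 without saline 1) and with the mesothelial list, near 0 in every library, at 0.844 (0.686). With the neutrophil list the correlation of Plat was 0.596, and -0.03 without saline 1. That of Plau was -0.224, and 0.705 without saline 1.

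Within libraries, the ratios of partner genes compare members that act on the same step. The log2 ratio of Procr to Thbd separated the groups, with -8.74 to -6.81 in saline and -6.44 to -4.92 in LPS. The log2 ratio of F3 to Tfpi was -3.56 to -3.32 in saline 2, 3 and 4, -2.05 to -1.20 in LPS, and -0.06 in saline 1, above all others. The log2 ratio of F8 to Vwf was -7.94 to -6.90 in saline 2, 3 and 4, -9.20 in saline 1 and -11.3 to -8.38 in LPS, so that saline 1 lay within the LPS range. The -11.3 belongs to LPS 2, where F8 had 2 reads, below the floor of 3 reads, so that end of the range is not exact. These ratios are differences between 2 genes of the same library and do not change with its scaling.

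**Figure D3:**
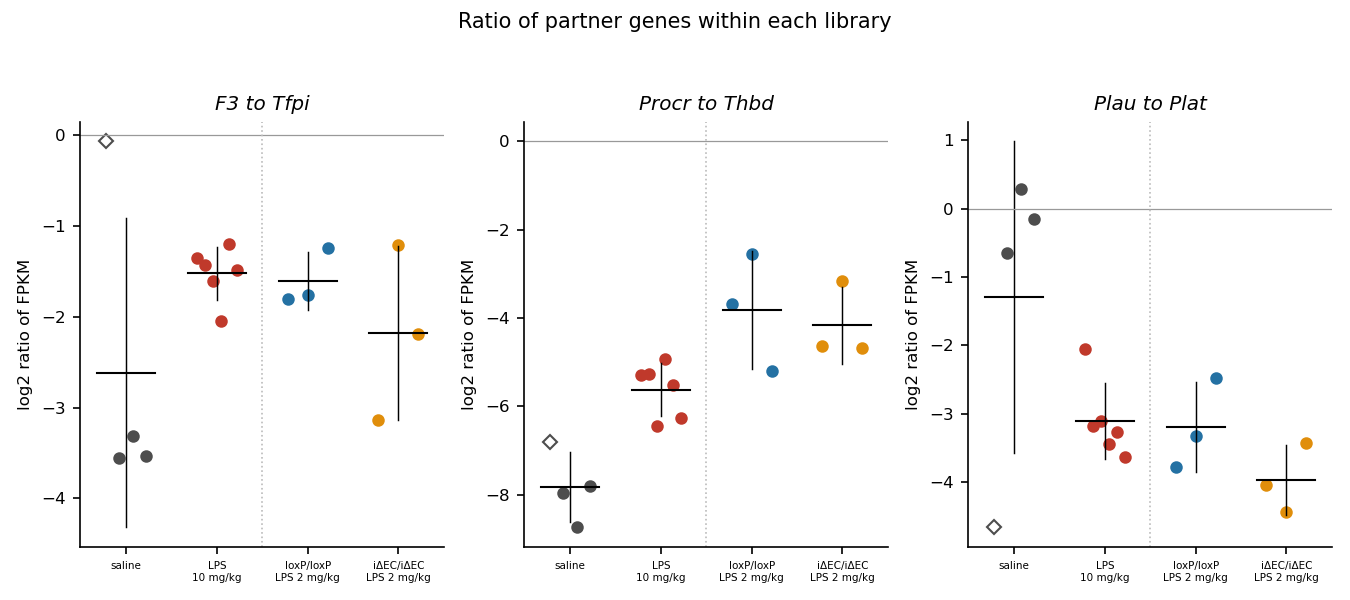
Log2 ratio of the FPKM of partner genes in each library (points), with the group mean (horizontal line) and SD (vertical line), and saline 1 as an open diamond. Procr to Thbd was higher in all LPS libraries than in all saline libraries, whereas saline 1 kept the groups from separating in F3 to Tfpi and in Plau to Plat.

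**Figure D4:**
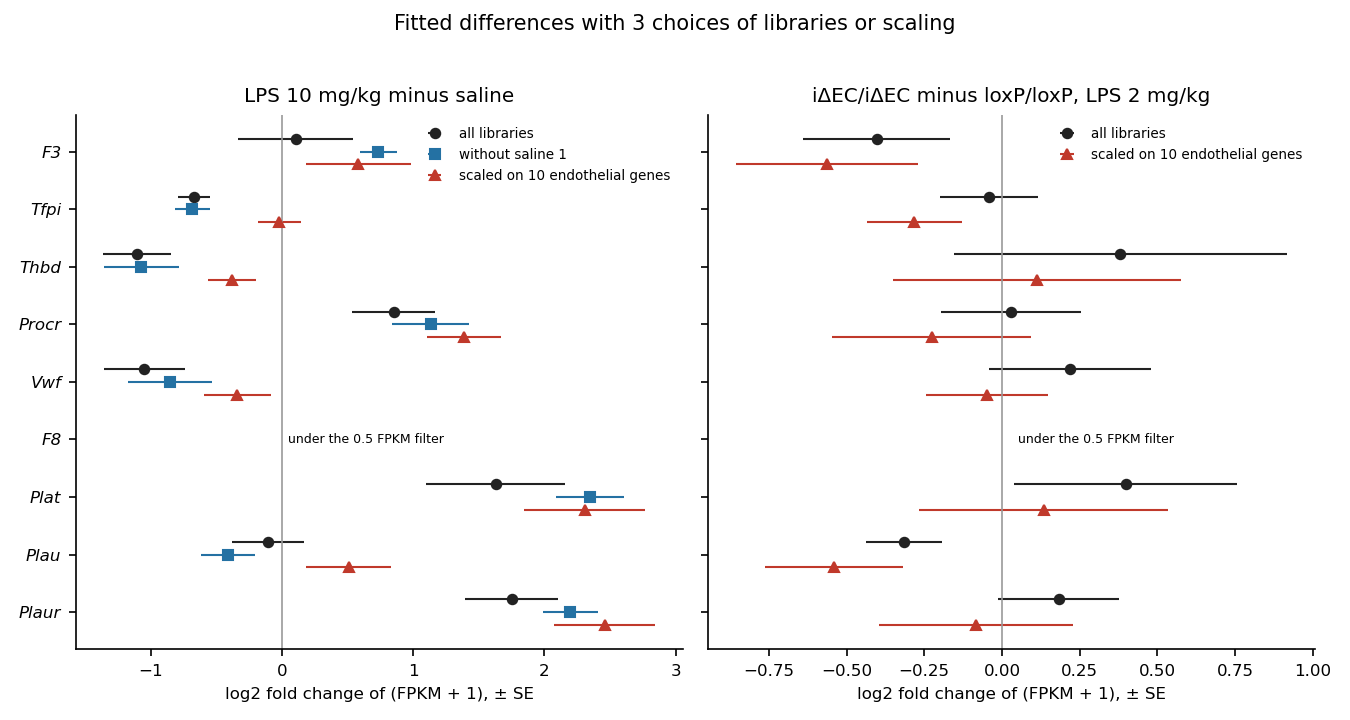
Fitted log2 fold change of FPKM + 1 with its SE for 8 of the 9 genes, with all libraries (circles), without saline 1 (squares, left panel only) and scaled to the list of 10 endothelial markers (triangles). The decreases of Tfpi, Thbd and Vwf came closer to 0 with the endothelial scaling, and F3 and Plat were higher without saline 1.

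The other genes of the pathway were described with 7 lists of 57 genes in all. Of the 34 genes tested in LPS against saline, 16 were higher and 6 were lower (64.7%), where 53.2% of all genes tested were called in either direction (29.5% higher and 23.7% lower). Without saline 1, 16 were higher and 8 were lower, beside 31.3% and 25.4% of all genes in that fit. Among the procoagulant factors, 3 of the 4 tested rose and 0 fell. F10, which encodes the factor activated by the complex of tissue factor and factor VIIa, averaged 1.30 ± 1.63 FPKM in saline (SD, n = 4) and 105.4 ± 35.2 FPKM in LPS (n = 6). Its log2 fold change of 5.68 ± 0.36 (adjusted p = 1.10e-06, limma) was the largest among the members and pathway genes tested. F7, which encodes the partner of tissue factor, rose by 2.03 on the log2 scale, and F13a1, which encodes the fibrin crosslinking subunit of factor XIII, by 1.98. Without saline 1, F10 was at 6.09 and F13a1 at 2.49. The macrophage list differed by 3.71 on the same scale. The isolation removed CD45+ cells before CD31 capture, and Ptprc, which encodes CD45, averaged 6.97 FPKM in saline and 34.6 FPKM in LPS. Within groups, F10 correlated with the leukocyte list at 0.868, with the neutrophil list at 0.849 and with the macrophage list at 0.744 over 16 libraries, and without saline 1 at 0.829, 0.724 and 0.884. The part of such cells in these values was not tested. The liver-made factors F2, F9, F11, F12, Fga, Fgb and Fgg were below the filter.

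In the list labelled anticoagulant, 4 genes were tested, and membership does not by itself show anticoagulant function. Gas6 and Pros1, both encoding vitamin K-dependent proteins, fell by 1.28 and 0.56 on the log2 scale. Anxa5, which encodes a phospholipid-binding annexin, rose by 0.85. With quantile normalization Anxa5 was at 0.19 and did not pass (adjusted p = 0.0743, limma). Scaled to the endothelial list, Gas6 was at -0.59 and passed (adjusted p = 0.00836, limma), whereas Pros1 was at 0.14 and did not pass. Ggcx, the carboxylase that such proteins need, fell by 1.03 (adjusted p = 0.000349, limma), and this call too was lost with the endothelial scaling, at -0.40 (adjusted p = 0.158). Mcfd2, a cargo receptor subunit for factor VIII, rose by 0.43 (adjusted p = 0.0253). Quantile normalization put Mcfd2 at -0.0074, and its call was also lost without saline 2, saline 4 or LPS 5, with adjusted p-values up to 0.0768. Adamts13, which encodes the protease that cleaves VWF, was below the filter, at 0.138 to 1.00 FPKM in saline and 0.0461 to 0.149 FPKM in LPS. In the list of fibrinolysis genes, 5 of 6 rose, where 29.5% of all genes tested were higher. These included Lrp1 (2.02), a clearance receptor, Serpinb2 (1.65), an inhibitor of urokinase, Anxa2 (1.58), part of a cell surface receptor for plasminogen and Plat, and Serpine2 (1.15), protease nexin 1, an inhibitor of thrombin. Serpine2 averaged 3.21 ± 0.73 FPKM in saline and 8.75 ± 3.48 FPKM in LPS, with the groups apart. Plgrkt, a plasminogen receptor, was at -0.37 with all libraries and passed as lower without saline 1, at -0.51 (adjusted p = 0.0401). Of 3 protease-activated receptors tested, F2rl1 fell by 0.89, and its saline 1 value was far above the other saline libraries. Without saline 1 it was at -0.54 (adjusted p = 0.0127), and scaled to the endothelial list it was at -0.54 and did not pass (adjusted p = 0.101).

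Selp and Cd63, membrane proteins of the Weibel-Palade bodies in which Vwf is stored, rose by 2.14 and 2.02 on the log2 scale. Vwf fell, and the part of other cell types in this difference was not tested. Selp and Cd63 were 2 of the 5 Weibel-Palade genes tested, and the other 3 did not pass with all libraries. One of them, Edn1, which encodes the vasoconstrictor endothelin 1, was at 0.32 (adjusted p = 0.581) and rose by 0.94 without saline 1 (adjusted p = 0.00561). Scaled to the endothelial list, 4 of the 5 were higher, with Angpt2 and Igfbp7 beside Selp and Cd63, but with this scaling 48.4% of all genes were higher, against 29.5% without it. Among 8 transcription factors, Egr1 (1.52), Klf2 (1.21), Klf4 (0.88) and Nfkb1 (0.42) rose, and Erg (-0.77) and Jun (-0.43) fell. Klf2 and Klf4 encode factors known to induce Thbd in ECs. Klf2 averaged 228.0 ± 24.0 FPKM in saline and 531.5 ± 79.0 FPKM in LPS, with the groups apart, while Thbd was lower in the same libraries. The calls of Klf4, Nfkb1 and Jun lay near the threshold, with adjusted p-values of 0.0451, 0.0358 and 0.0297. Among 21 other choices of libraries or processing, Klf4 was no longer called in 12, Nfkb1 in 10 and Jun in 11. Without single libraries the adjusted p rose to 0.138 for Klf4, to 0.0902 for Nfkb1 (without saline 1) and to 0.0693 for Jun. Fosl1, which encodes an AP-1 subunit, was at -0.34 with all libraries and passed as lower without saline 1, at -0.46 (adjusted p = 0.0151). Scaled to the endothelial list, Erg was at -0.06 and Jun at 0.29, and neither passed. Erg is itself a gene of that list, so its value under this scaling is no separate test.

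**Figure D5:**
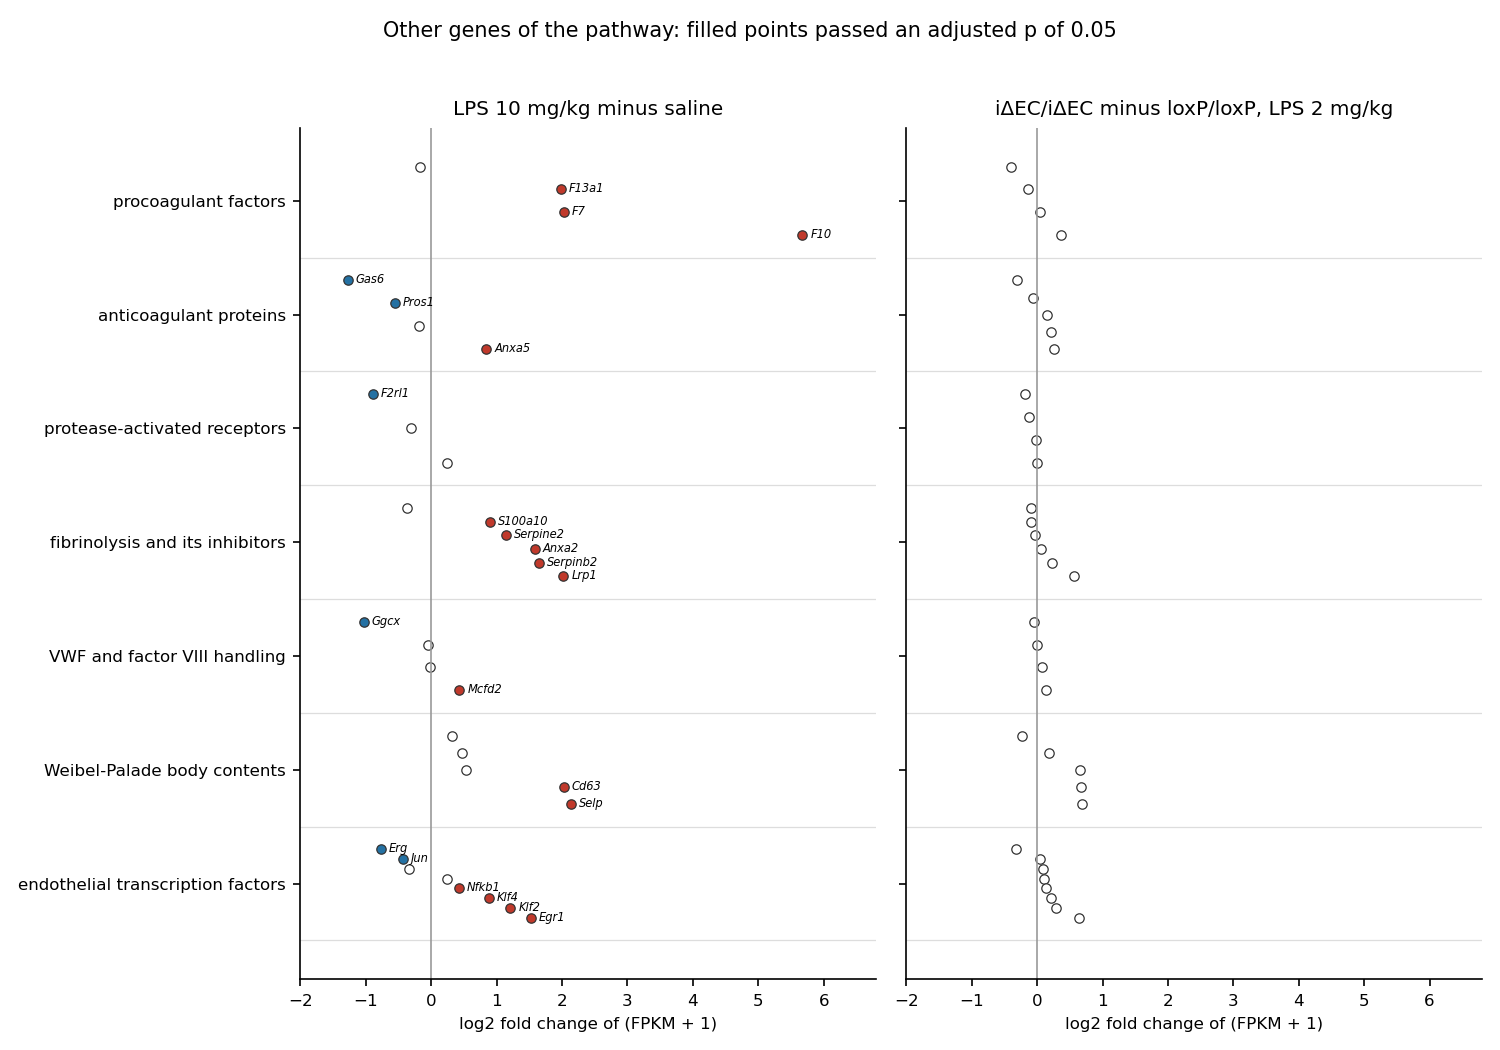
Log2 fold change of FPKM + 1 of the tested genes of 7 pathway lists, in LPS against saline (left) and in cko against wt (right). Filled points passed an adjusted p of 0.05 (red higher, blue lower), and open points did not. All filled points are in the left panel, where F10 lies farthest to the right.

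The comparison of cko with wt asked whether loss of endothelial Fgfr1 changed these genes under LPS. Fgfr1 itself was at 2.90, 2.91 and 2.60 FPKM in wt 1 to 3 and at 0.682, 1.41 and 1.15 FPKM in cko 1 to 3. The groups were apart, with a log2 fold change of -0.88 ± 0.16, although its adjusted p was 0.962. None of the 9 genes was called, and 0 of the 14945 genes tested passed (0%). With limma-voom on the read numbers 0 genes passed as well. Groups lay apart in 10.1% of the genes tested, in either direction. The limma p before adjustment was under 0.05 in 661 genes (4.42%), and among the members only in Plau, at 0.0392. With the replicate number as a block, it was under 0.05 in 1154 of the 14945 genes. The smallest adjusted p was then 0.306, against 0.742 without the block, and 0 genes passed. Plau was again the only member under 0.05 before adjustment, at 0.0384 (limma). Plau was at 5.24, 7.10 and 5.97 FPKM in wt and at 4.46, 4.63 and 4.95 FPKM in cko. All cko libraries lay below all wt libraries, as in 4.09% of all genes tested, with a log2 fold change of -0.31 ± 0.12 (adjusted p = 0.962).

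In the other members the genotypes overlapped. Thbd was at 246.7, 153.4 and 562.8 FPKM in wt and at 409.3, 218.2 and 528.2 FPKM in cko, a spread within each genotype that was wider than the difference between them (0.38 ± 0.54). Vwf was at 135.0, 107.8 and 109.0 FPKM in wt and at 178.8, 92.0 and 152.0 FPKM in cko (0.22 ± 0.26). F3 was at 2.40, 2.07 and 3.34 FPKM in wt and at 1.06, 2.59 and 1.65 FPKM in cko (-0.40 ± 0.24). With the replicate number as a block, the SEs of Thbd, Vwf and F3 were 0.20, 0.18 and 0.23 on the log2 scale, and their adjusted p-values were 0.685, 0.784 and 0.700 (limma). For Tfpi, Procr, Plat and Plaur the log2 fold changes were -0.04 ± 0.16, 0.03 ± 0.22, 0.40 ± 0.36 and 0.18 ± 0.19. Plat was higher in cko in all 3 pairs of libraries with the same replicate number, at 72.0 FPKM in wt and 73.6 FPKM in cko in the first pair, 71.0 and 100.5 in the next and 33.3 and 53.4 in the last. With the block its log2 fold change was 0.40 ± 0.15, and its adjusted p of 0.642 did not pass. Plaur was also higher in cko in all 3 pairs, at 90.7 and 91.4 FPKM, 108.5 and 142.5 FPKM, and 112.3 and 124.2 FPKM, with a blocked difference of 0.18 ± 0.12 (adjusted p = 0.740, limma). In the same pairs the endothelial list was higher in cko, at 7.39 and 7.64, 7.02 and 7.17, and 7.14 and 7.55. The epithelial list was lower, at 4.67 and 3.82, 5.37 and 4.82, and 5.46 and 4.58. Scaled to the endothelial list, Plat was at 0.13 ± 0.40 and Plaur at -0.08 ± 0.31. How many of all genes went one way in all 3 pairs was not counted. F8 stayed below the filter, at 0.0613 to 0.326 FPKM in wt and 0.0806 to 0.131 FPKM in cko. Of the 36 pathway genes tested, 0 were called. The largest differences in their lists were those of F7 (-0.41), Proz (-0.31), F2rl3 (-0.19), Serpine2 (0.57), Lman1 (0.14), Edn1 (0.68) and Klf4 (0.65). Among all 36, groups lay apart in Serpine2, Selp, Edn1, Klf4 and Rela, so that 5 were higher in every cko library than in every wt library, beside 6.02% of all genes tested, and 0 were lower, beside 4.09%.

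Side by side, the level of each gene after LPS differed between the experiments in some members. The tables were normalized separately, with a joint median-of-ratios scale of 1.02 between them, and dose, genotype and tamoxifen also differ, so no test was made. Procr was at 15.2 to 26.2 FPKM in wt and 16.4 to 24.4 FPKM in cko after 2 mg/kg LPS, against 3.54 to 11.2 FPKM after 10 mg/kg and 1.38 to 5.58 FPKM after saline. Vwf was at 107.8 to 135.0 FPKM in wt, above all LPS libraries and above 3 of the 4 saline libraries of the first experiment. In contrast, Tfpi, at 7.03 to 8.40 FPKM in wt, and Plaur, at 90.7 to 112.3 FPKM, were near their values after 10 mg/kg LPS. By mean FPKM, the order in saline was Thbd, Vwf, Plaur, Plat, Tfpi, Plau, F3, Procr and F8, and in LPS it was Thbd, Plaur, Plat, Vwf, Tfpi, Procr, Plau, F3 and F8. In both wt and cko it was Thbd, Vwf, Plaur, Plat, Procr, Tfpi, Plau, F3 and F8. In saline, all neighbours from Vwf to Procr in that order overlapped. That order rests in part on saline 1: without it, Tfpi (11.9 FPKM on average) came before Plat (8.84) and Procr (2.07) before F3 (1.09), and of the neighbours only Plat and Plau overlapped. In LPS the ranges of Thbd and Plaur overlapped, as did those of Plat and Vwf and those of Tfpi, Procr and Plau. Vwf and Plaur overlapped in wt and in cko, Tfpi and Plau in wt, and Plaur and Plat in cko, and all other neighbours were apart.

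The genes whose values followed each member most closely within groups were sought among 14183 others, by the correlation of log2(FPKM + 1) after group means were removed, over 16 libraries, and the value without saline 1 is given beside it. For Thbd these were Cyth3 (0.955, and 0.965 without saline 1), Tspan18 (0.951 and 0.951) and Podxl (0.950 and 0.950). Tfpi was followed by Ocln (0.945 and 0.973), Cd36 (0.944 and 0.947) and Tmcc2 (0.941 and 0.947). Vwf was followed by Vegfc (0.932 and 0.919), Twsg1 (0.916 and 0.966) and Ctnnb1 (0.913 and 0.903). These 3 members also moved together, with correlations of 0.668 between Thbd and Tfpi, 0.654 between Tfpi and Vwf and 0.587 between Thbd and Vwf (0.675, 0.745 and 0.615 without saline 1). Procr and Plat correlated at 0.773 (0.672 without saline 1). The correlation of Plaur with Vwf was near 0 over 16 libraries and -0.637 without saline 1, and those of F3 with Plaur (0.830) and Plat (0.773) came to 0.247 and -0.085 without it. Plaur was followed by Adam8 (0.970 and 0.896), Trem1 (0.969 and 0.900) and Il1b (0.967 and 0.891), which are abundant in myeloid cells. Procr was followed by the chemokine gene Cxcl1 (0.922 and 0.886), Gm9780 (0.914 and 0.923) and Pex14 (0.913 and 0.880), and Plat by Bcl2l1 (0.974 and 0.905), Sdcbp2 (0.966 and 0.901) and Cdkn1a (0.964 and 0.917). In F3 the likeness rested on saline 1: Pip5k1b, Gm18407 and Sik1 had correlations of 0.960, 0.947 and 0.946 with it and of 0.756, 0.557 and 0.490 without it. Without saline 1 the genes closest to F3 were Slc26a9 (0.877), Cxcl17 (0.830) and Cxadr (0.815). With the neutrophil list F3 correlated at 0.765 (0.386 without saline 1), and with the epithelial list at 0.711 (0.537). For Plau they were Pop1 (0.919 and 0.796), 2810004N23Rik (0.916 and 0.794) and S1pr2 (0.909 and 0.890). The correlation of Plau with Plaur turned from -0.335 over 16 libraries to 0.852 without saline 1.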

How the data were processed

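Bulk RNA-seq of bead-isolated pulmonary ECs was analysed in 16 libraries of 4 groups, as labelled. The authors aligned the reads to GRCm38 with HISAT2 (v2.0.5), counted them per gene with featureCounts (v1.5.0-p3) and deposited FPKM values and gene lengths in 2 tables, each normalized within itself. Strandedness, trimming and the handling of reads with several alignments are not given in the sources used here. FPKM and length gave back whole read numbers for 100% of the values, within a tolerance of 0.05 reads.

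FPKM was scaled by median-of-ratios factors, which left the first table as deposited, and log2(FPKM + 1) was compared with limma (3.58.1, R 4.3.3, with intensity trend) for genes whose mean reached 0.5 FPKM across both groups. Fold changes are on this scale and understate those of low genes. P-values were adjusted by Benjamini-Hochberg over all genes tested and called at 0.05. Groups are called apart where all libraries of one lie on one side of all of the other. On simulated data of the LPS design, 70% of genes changed by a log2 fold of 1 and 100% of those changed by 2 were recovered among 14893 genes, and for the cko design 54% and 94% among 14945. The simulation gave every gene the same dispersion (0.0460 for the LPS design and 0.0273 for the cko design). It held no outlying library and no mixture of cell types. These shares are therefore too high for genes with a wider spread, such as Thbd in cko and wt. Fewer reads give less precise values, and 3 reads were taken as the floor of detection, so F8 and Adamts13 are the least precise. Alternatives were the pseudocount, the filter, the scaling (total reads, quantiles, endothelial list), limma-voom on read numbers, a fold limit, the replicate number as a block, and leaving out each library. The replicate numbers were taken as pairing wt and cko, since the deviations of same-numbered libraries from their group means correlated at 0.248, 0.178 and 0.187, and blocking changed no call there.

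The members and lists were chosen with earlier results of these data known. Named were all 9 members, in each pathway list up to 4 called genes in each direction by fold change (or the gene with the largest where none was called), Adamts13, Fgfr1, and the 3 most correlated genes per member. Plgrkt, Fosl1, Edn1 in LPS, and further pathway genes whose call or sign depended on saline 1 or the scaling, were named after their values were seen. Because 11 symbols of the cko and wt data read as dates, genes were joined by identifier. Promoters are RefSeq (GRCm38.p6). Clec4m, one of the 57 pathway genes, was not analysed here, and a further gene fixed in these lists is not reported here. Python 3.11.15 with pandas 2.3.3 and numpy 2.4.6 was used outside R, and matplotlib 3.10.9 for plots.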

Additional observations from a re-analysis of the deposited data

Results flagged for a closer look

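Values within groups of 4 or 6 libraries were examined for a single library far from the others by Dixon's criterion, and 10 of 90 stood out, where chance flags about 1 in 20 (4.5 of 90). Of the 10, 7 were saline 1, 2 were LPS 1 and 1 was saline 3. On the log2(FPKM + 1) scale, saline 1 was at 3.57 for F3 (the other saline libraries at 0.96 to 1.21), at 6.16 for Plat (3.08 to 3.40), at 2.24 for F10 (0.49 to 0.69), at 3.14 for F13a1 (0.97 to 1.26), at 2.55 for F2rl1 (1.08 to 1.19) and at 3.88 for Cd63 (2.80 to 2.92). Among the log2 ratios, saline 1 was at -0.065 for F3 to Tfpi (others -3.56 to -3.32). LPS 1 was high in Serpinb2, at 2.60 against 1.42 to 1.85, and in the log2 ratio of Plau to Plat, at -2.05 against -3.64 to -3.11. In saline 3 the lymphocyte marker list was low, at 1.93 against 3.51 to 3.73. What set these libraries apart was not tested.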

How the results depend on the processing

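With all members, the count of 3 higher in LPS was 1 (Plaur) without the filter on low values, beside 11.3% of all genes. In that fit 4 were lower, beside 10.4%. With scaling on total reads the count higher was 2, beside 23.2%. It was 1 to 4 when single libraries were left out, beside 25.7% to 31.3%. The count of 3 lower was 0 when scaled on the endothelial list. Scaled this way, 7258 genes were higher and 799 lower in LPS. With the scaling as in the main comparison and a fold limit (a log2 fold change of 1 or more in size), 1768 genes were higher and 1011 lower. Of the pathway genes, 16 were called higher and 6 lower, beside 29.5% and 23.7% of all genes. These counts were 11 and 11 with quantile normalization (24.0% and 28.8% of all genes), 20 and 1 with the endothelial list (48.4% and 5.32%), and 11 and 2 with the fold limit (11.9% and 6.79%). Among the 9 members and the pathway genes named by fold change in LPS, the log2 fold changes that turned in sign were those of F3 (-0.0096 scaled on total reads, and -0.14 to 0.73 when single libraries were left out), Plau (0.51 with the endothelial list, and -0.41 to 0.16), Pros1 (0.14) and Jun (0.29) with the endothelial list, and Mcfd2 (-0.0074 with quantile normalization). Among the other pathway genes tested, the endothelial list also turned Lman1 (0.64, adjusted p = 0.0149, limma), F2r (0.39), Plgrkt (0.32), Tfpi2 (0.21), Vkorc1 (0.52), F5 (0.19) and Fosl1 (0.30) to higher values, and of these only Lman1 passed. Scaling on total reads moved the median of all genes to -0.14. In cko against wt no member was called in any fit. Among the members and the pathway genes named by fold change in that comparison, Procr turned in sign (-0.036 with total reads, -0.23 with the endothelial list, and -0.15 to 0.22 without single libraries). So did Plaur (-0.084), Vwf (-0.049) and Lman1 (-0.12) with the endothelial list, and, without single libraries, Thbd (-0.047 to 0.89), Tfpi (-0.18 to 0.10) and F7 (-0.72 to 0.11). Among the other pathway genes, the endothelial list also turned F13a1, Pros1, Gas6, F2rl2, Anxa2, Mcfd2, Igfbp7, Klf2, Erg, Nfkb1, Fosl1 and Jun to lower values, and none passed. The cause of these moves was not tested beyond the library left out.

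In LPS against saline the replicate numbers do not pair the mice, since same-numbered libraries correlated at 0.10, -0.16, -0.21 and -0.12. With the replicate block, 1 member was higher and 2 were lower, beside 23.1% and 17.2% of all genes. Leaving out saline 1 and saline 3 together, chosen after seeing the data, gave 4 higher and 3 lower, beside 28.4% and 21.6%. Values of F3 and Plat depend most on saline 1, and 3 libraries a group leave differences of less than about 1 on the log2 scale hard to detect.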
